A study of Homo sapiens with 4 samples.

Results

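The corneal and epithelial fate transcription factors described here are PAX6, FOXC1, TP63, GRHL1, GRHL3, OVOL1, ELF3, EHF, ZNF750 and PRDM1. They were taken by gene symbol from a written list of 10, and 8 of the 10 were matched to an array feature with a single listed symbol, among 18417 genes measured in all. FOXC1 and TP63 were matched to no such feature and were not analysed here. Each of the 8 matched genes had 1 feature. Total RNA was hybridised to 4 whole-transcript arrays, 2 from cells given an siRNA pool against KLF7 (siKLF7) and 2 from cells given a scramble control siRNA pool. All 4 came from HCE, described in the labels as a cell line of undifferentiated cells, in a series on the corneal epithelium. Both groups were plated at 100000 cells per well, transfected with 20 nM of siRNA and harvested after 48 hours. No label says whether the 2 samples of a group were separate cultures, so every p-value measures the spread between these arrays only, which may be technical.

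As background, the surface of the eye is covered by a stratified epithelium whose fate is held by a small set of transcription factors. PAX6, a paired-box factor, sets eye and corneal identity, and TP63, a relative of the tumour suppressor p53, maintains the basal progenitors of stratified epithelia. The grainyhead-like factors, OVOL1, the epithelium-specific ETS factors, ZNF750 and PRDM1 act as cells leave the basal layer, form junctions and build a barrier. KLF7, the knocked-down gene, belongs to the zinc finger Kruppel-like family, whose members bind GC-rich and CACC-type DNA.

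KLF7 itself had a signal of 1492 and 1122 in the siKLF7 arrays, against 4649 and 2911 in scramble control replicates 1 and 2. Signals are the deposited array intensities on a linear scale. Both siKLF7 arrays lay below both controls, and the mean siKLF7 signal was 44.9% of that of scramble control replicate 2. With 3 arrays, which keep only that control, KLF7 fell (log2 difference -1.16, SE 0.13, limma's adjusted p = 1.2e-09), and with 4 arrays it stood at -1.50 (adjusted p = 0.639). In the 3-array fit the spread comes from the siKLF7 pair, pooled mostly over all genes (74.2 prior degrees of freedom, 1 residual). An SE there says little about how closely a gene's own pair agreed. Scramble control replicate 2 is taken to share that spread. Scramble control replicate 1 stood apart from the other 3 arrays. It correlated with them across genes at r = 0.934 to 0.938, against 0.990 to 0.994 among the other 3. It is therefore named wherever a value rests on it, and each comparison is given with all 4 arrays and with 3 arrays, which leaves only scramble control replicate 2 as control. The bulk signal cannot tell fewer cells of a type from less RNA per cell.

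The 8 factors gave different pictures against the 2 controls. Against scramble control replicate 2, PRDM1, a zinc finger repressor, fell by 0.78 on the log2 scale, and none of the other 7 passed the test. ELF3, an epithelium-specific ETS factor, stood at -0.54, and PAX6 and OVOL1 at 0.27 and 0.30. Against scramble control replicate 1, ZNF750, GRHL1, OVOL1 and ELF3 were 2.56 to 3.91 log2 units higher in the siKLF7 arrays, and EHF was lower by 0.48 (log2 difference -0.48). The distance between the 2 controls exceeded the distance between siKLF7 arrays and scramble control replicate 2 for all 8 factors.

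**Figure D1:**
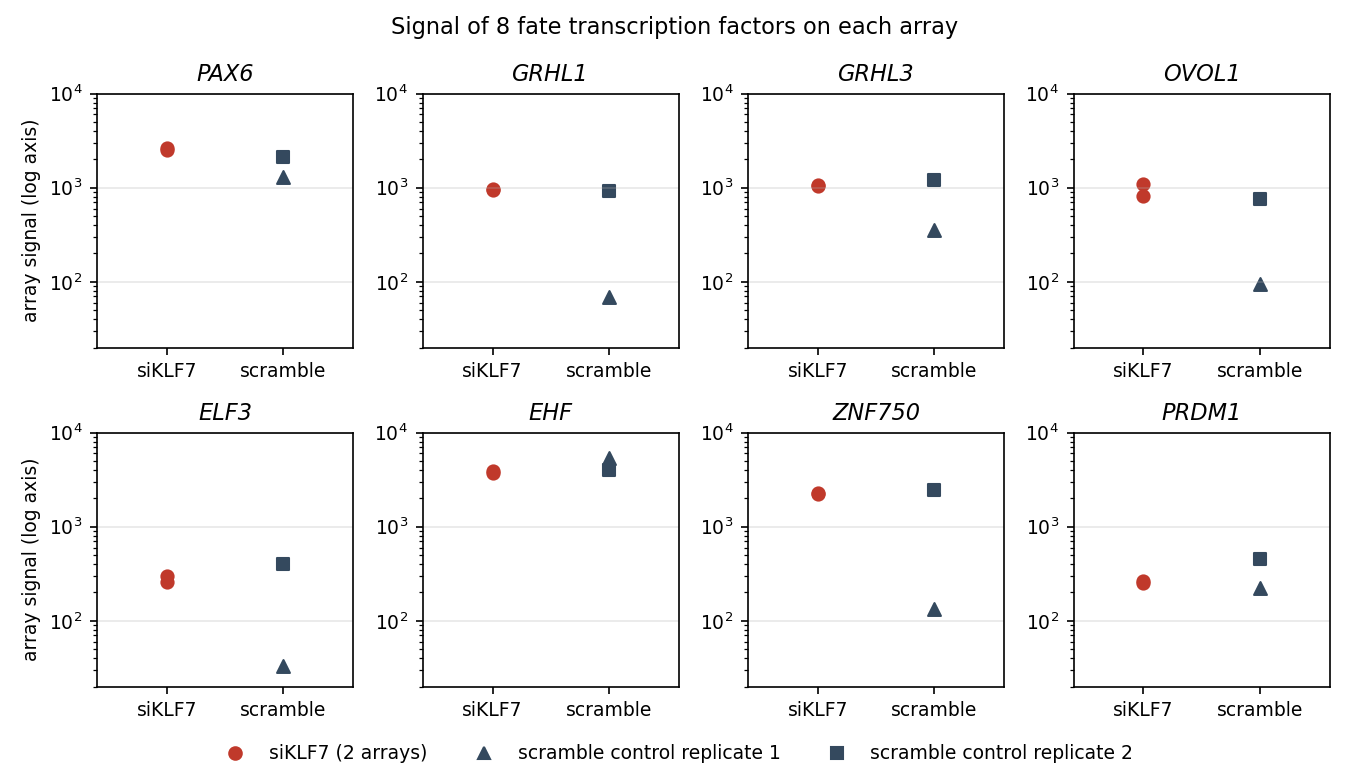
Array signal on a log axis for each of the 8 measured factors, with the 2 siKLF7 arrays as circles on the left, scramble control replicate 1 as a triangle and replicate 2 as a square. The triangle lies far below the other points for GRHL1, OVOL1, ELF3 and ZNF750 and above them for EHF, and the PRDM1 circles lie between the controls.

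PAX6 (feature 7947338) measured 2529 and 2629 in the siKLF7 arrays, against 1309.6 and 2128 in scramble control replicates 1 and 2. Both siKLF7 arrays lay above both controls, and the siKLF7 pair was close together, at 2579 ± 70.6 (SD, n = 2) against 1719 ± 579 (SD, n = 2) in the controls. On the log2(signal + 16) scale siKLF7 minus scramble control came to 0.62 (SE 0.26) over the 4 arrays and 0.27 (SE 0.11) over the 3 arrays. Neither passed limma's test with Benjamini-Hochberg adjustment over all genes at 0.05 (adjusted p = 0.639 and 0.3001). The 95% interval of the 3-array difference, which is not adjusted for the number of genes, was 0.05 to 0.50. The pseudocount of 16 shrinks the fold changes of dim genes.

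The 2 measured grainyhead-like factors, which switch on genes of epithelial junctions and barrier repair, did not pass the test with 4 arrays or with 3 arrays. GRHL1 (feature 8040190) measured 955 and 959.6 in the siKLF7 arrays, against 68.9 and 918 in scramble control replicates 1 and 2. Its siKLF7 arrays differed from each other by 0.0067 log2 units and lay just above replicate 2 and far above replicate 1. Over 4 arrays GRHL1 stood at 1.79 (SE 1.14, adjusted p = 0.639). Over 3 arrays it stood at 0.06 (SE 0.15, 95% interval -0.24 to 0.36, adjusted p = 0.904). GRHL3 (feature 7898916) measured 1042 and 1076 in the siKLF7 arrays, against 359 and 1202 in the controls. The siKLF7 arrays lay between the controls, nearer to replicate 2. With 3 arrays the difference was -0.18 (95% interval -0.47 to 0.11, adjusted p = 0.664), and with 4 arrays it had the opposite sign, 0.67 (SE 0.57, adjusted p = 0.665).

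OVOL1 (feature 7941401), a zinc finger repressor that restrains progenitor growth as epithelial cells differentiate, measured 826 and 1088 in the siKLF7 arrays, against 94.2 and 765 in scramble control replicates 1 and 2. Both siKLF7 arrays lay above both controls, but they were 0.39 log2 units apart, the widest gap of the 8 factors. That gap was larger than the 3-array difference of 0.30 (95% interval -0.01 to 0.61, adjusted p = 0.461), which did not pass. With 4 arrays OVOL1 stood at 1.72 (SE 0.95, adjusted p = 0.639).

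The 2 epithelium-specific ETS factors differed in pattern. ELF3 (feature 7908793) measured 296 and 255 in the siKLF7 arrays, against 33.4 and 406 in scramble control replicates 1 and 2. The siKLF7 arrays were both at a lower level than replicate 2, at 67.9% of its signal, and far above replicate 1. The 3-array difference of -0.54 (SE 0.16, 95% interval -0.86 to -0.21) did not pass, with an adjusted p of 0.082. It passed with quantile normalization (adjusted p = 0.040), and the adjusted p ranged from 0.040 to 0.125 over the alternatives run with 3 arrays. With 4 arrays ELF3 had the opposite sign, 1.01 (SE 1.03, adjusted p = 0.702). EHF (feature 7939314) measured 3893.5 and 3722 in the siKLF7 arrays, against 5298 and 4036 in the controls. It was the only one of the 8 in which both siKLF7 arrays lay below both controls, and the only one with a higher signal in replicate 1 than in replicate 2. EHF stood at -0.28 (SE 0.16, adjusted p = 0.639) over 4 arrays. Against replicate 2 alone it stood at -0.08 (95% interval -0.27 to 0.11, adjusted p = 0.768).

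ZNF750 (feature 8019541), a zinc finger factor of terminal epidermal differentiation, measured 2276 and 2214 in the siKLF7 arrays, against 134 and 2422 in scramble control replicates 1 and 2. It had the widest gap between the controls of the 8, 16.2-fold on the log2(signal + 16) scale, while the siKLF7 arrays were at 92.7% of replicate 2. The 3-array difference was -0.11 (95% interval -0.34 to 0.12, adjusted p = 0.7505). With 4 arrays it was 1.90 (SE 1.33, adjusted p = 0.644), again of the opposite sign.

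PRDM1 (feature 8121257), a repressor known from plasma cells that also acts in keratinocyte differentiation, measured 252 and 262 in the siKLF7 arrays, against 221 and 452 in scramble control replicates 1 and 2. The siKLF7 arrays were 0.05 log2 units apart and lay between the controls, at 56.9% of replicate 2 and above replicate 1. With 3 arrays PRDM1 fell by 0.78 on the log2 scale (SE 0.16, 95% interval -1.10 to -0.45), 1.71-fold, with an adjusted p of 0.0014. It was the 94th largest absolute change among the 18417 genes of that fit. With 4 arrays the difference was -0.29 (SE 0.34, adjusted p = 0.741) and did not pass. Against replicate 1 alone it was 0.20 and pointed the other way, so the fall of PRDM1 rests on scramble control replicate 2.

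**Figure D2:**
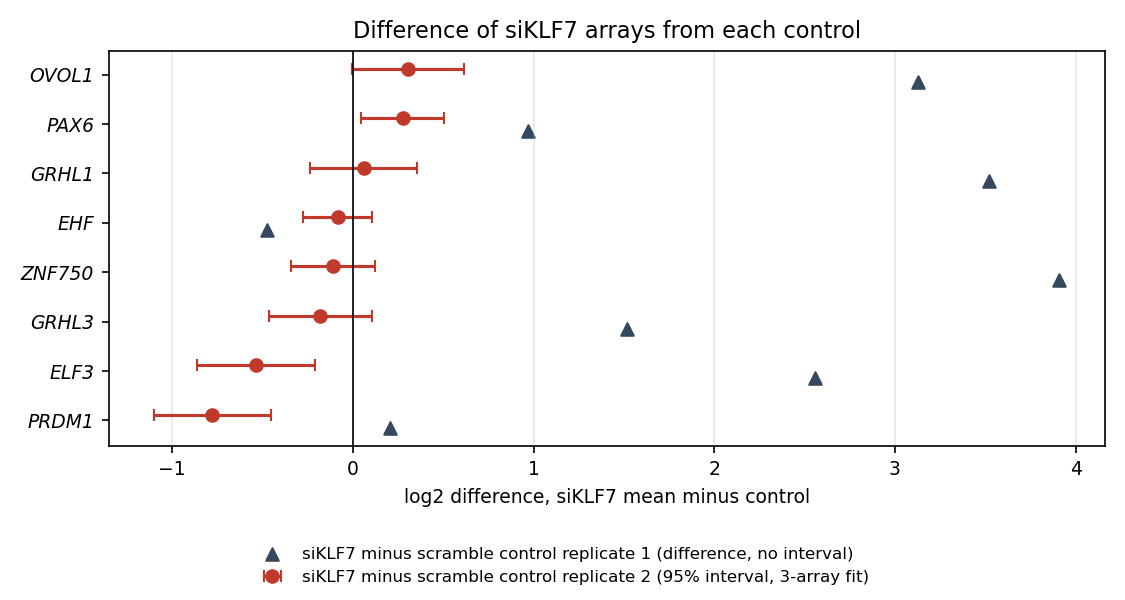
Log2 difference of the siKLF7 mean from each control for the 8 factors, with circles and 95% intervals for scramble control replicate 2 (3-array fit) and triangles without interval for replicate 1. The circles run from -0.78 for PRDM1 to 0.30 for OVOL1, while the triangles run from -0.48 for EHF to 3.91 for ZNF750.

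Counts over the members were read against all genes. With 4 arrays 0 of the 8 factors passed, against 0% of all genes, and 0 of the 8 had an unadjusted p under 0.05, against 5.8% of all genes. With 3 arrays 1 of the 8 fell, against 0.69% of all genes, and 0 rose, against 0.885%. Both siKLF7 arrays lay above both controls for 3 of the 8 (PAX6, GRHL1 and OVOL1), against 16.3% of all genes, and below both for 1 (EHF), against 28.9%. Relative to scramble control replicate 2 alone, both siKLF7 arrays were higher for the same 3, against 29.7% of genes. They were lower for the other 5, against 44.6% of genes. Over all genes the median stood at -0.05 (4 arrays) and at -0.04 (3 arrays). With 2 arrays against 2, an exact two-sided permutation test cannot give a p below 0.333.

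The members also differed between the 2 controls. Scramble control replicate 1 was at least 2-fold below replicate 2 for 5 of the 8 factors (GRHL1, GRHL3, OVOL1, ELF3 and ZNF750), against 2.95% of all genes. It was at least 2-fold above replicate 2 for 0 of the 8, against 2.34%. On the log2 scale, replicate 1 minus replicate 2 was -4.02 for ZNF750, -3.46 for GRHL1, -3.10 for ELF3, -2.83 for OVOL1 and -1.70 for GRHL3. PRDM1 and PAX6 were at -0.98 and -0.69, and EHF at 0.39. The median over all genes was -0.0057. These are differences between 2 single arrays and have no replicate check.

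**Figure D3:**
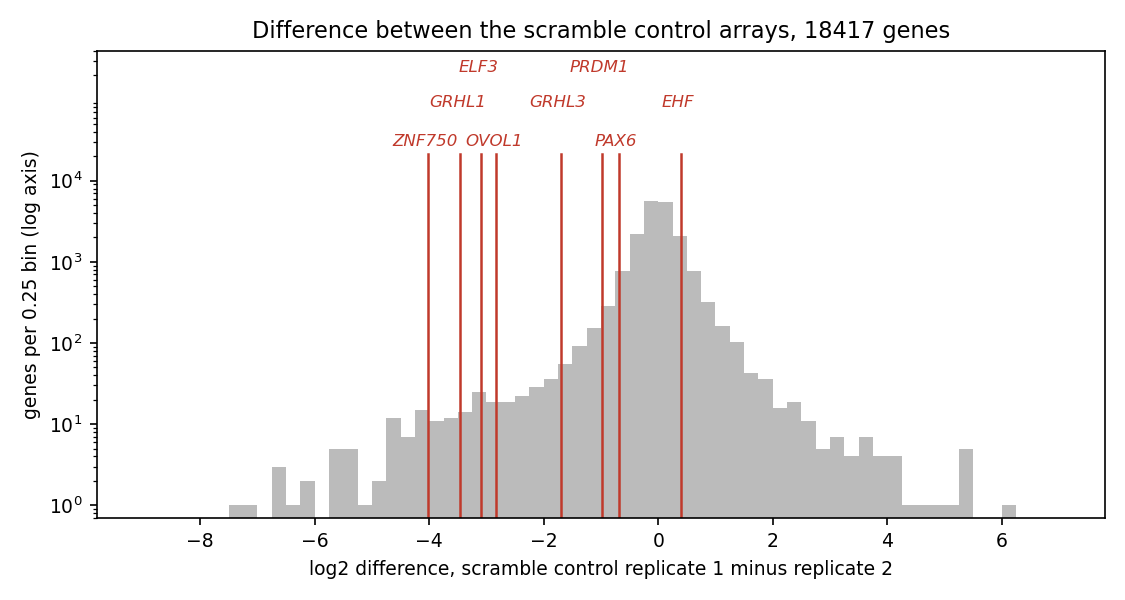
Histogram of the log2 difference between scramble control replicate 1 and replicate 2 over 18417 genes, with genes per bin on a log axis and the 8 factors as vertical lines. ZNF750 at -4.02 and GRHL1 at -3.46 lie in the lower tail, and EHF at 0.39 lies to the right of 0.

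Some markers of the cells moved with that gap. Of 17 measured genes of corneal and surface epithelial identity, 9 were at least 2-fold lower in replicate 1 than in replicate 2. Over all genes this share was 2.95%. In this list 0 were at least 2-fold higher, against 2.34% of all genes, and the rest lay within 2-fold. KRT12, a keratin of the corneal epithelium, measured 2434 and 3136 in the siKLF7 arrays, against 67.7 and 1569.7 in the controls. Its partner KRT3 measured 1873 and 2461 in the siKLF7 arrays, against 0.0055 and 1440.4 in the controls. The basal keratin KRT5 was high on all 4 arrays, at 13229 and 13575 in siKLF7 and 11828 and 12764 in control arrays. The summed signal of the list was 57502 and 61136 in the siKLF7 arrays and 34019 and 52518 in the controls. KRT5 and the keratin KRT14 gave 11828 and 8379 of the 34019 in replicate 1, so this sum rests largely on them. Of 16 stromal fibroblast and keratocyte markers, 4 were at least 2-fold higher in replicate 1 than in replicate 2, against 2.34% of all genes. In this list 1 was at least 2-fold lower, against 2.95% of all genes, and the median gap was 0.11 log2 units. The lower one, ALDH1A1, an aldehyde dehydrogenase, measured 436 and 479 in the siKLF7 arrays, against 61.5 and 303 in the controls. FN1, fibronectin, measured 596 and 612 in the siKLF7 arrays, against 6544 and 543 in the controls. The summed signal of these 16 was 4799 and 4693 in siKLF7 and 11581 and 4087 in control arrays. FN1 alone gave 6544 of the 11581 in replicate 1, so the sum does not describe the list as a whole. Among the listed stromal markers, KERA and DCN stayed between 21.2 and 48.3 on all arrays. LUM, from the same list, measured 63.5 and 62.4 in the siKLF7 arrays, against 25.1 and 34.6 in scramble control replicates 1 and 2. The part of these cell markers in the values of the 8 factors was not tested.

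Promoter sequence is shown for PRDM1, the member that passed with 3 arrays, and, for comparison, for 2 members that did not pass: ELF3, the next in size, and PAX6, the eye identity factor. They were chosen after their values were seen. The windows run from 250 bases before to 50 after a start in RefSeq on GRCh38.p14, and 6 of the 8 measured members had an entry (17 windows in all). Each is printed 5′ to 3′ on the strand of the gene. Capitals mark the CACC box (CACCC, or GGGTG on the other strand) and the GC box (GGGCGG or CCGCCC), which are among the kinds of site that Kruppel-like factors bind. PRDM1 has 2 listed starts, at chr6:106086086-106086385 and chr6:106098691-106098990, both on the plus strand. ELF3 has 1, at chr1:202010337-202010636 on the plus strand, and PAX6 has 9, of which the first in the table is shown, at chr11:31817912-31818211 on the minus strand.
PRDM1, start 1: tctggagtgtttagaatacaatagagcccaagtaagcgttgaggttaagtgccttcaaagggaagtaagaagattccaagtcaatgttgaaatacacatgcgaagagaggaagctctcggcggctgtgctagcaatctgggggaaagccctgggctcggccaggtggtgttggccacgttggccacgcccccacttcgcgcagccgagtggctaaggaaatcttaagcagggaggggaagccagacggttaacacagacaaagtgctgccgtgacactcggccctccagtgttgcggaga
PRDM1, start 2: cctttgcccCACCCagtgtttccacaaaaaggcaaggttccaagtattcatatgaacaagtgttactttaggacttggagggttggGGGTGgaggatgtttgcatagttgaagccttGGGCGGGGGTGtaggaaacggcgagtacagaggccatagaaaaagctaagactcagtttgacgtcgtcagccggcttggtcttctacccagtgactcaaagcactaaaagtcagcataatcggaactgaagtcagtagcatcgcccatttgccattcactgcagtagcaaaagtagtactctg
ELF3: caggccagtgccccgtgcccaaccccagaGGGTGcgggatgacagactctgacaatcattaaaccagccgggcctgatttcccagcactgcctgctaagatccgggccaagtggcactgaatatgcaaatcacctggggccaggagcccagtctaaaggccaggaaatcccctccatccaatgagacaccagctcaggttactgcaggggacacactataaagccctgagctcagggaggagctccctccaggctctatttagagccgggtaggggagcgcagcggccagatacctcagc
PAX6, start 1: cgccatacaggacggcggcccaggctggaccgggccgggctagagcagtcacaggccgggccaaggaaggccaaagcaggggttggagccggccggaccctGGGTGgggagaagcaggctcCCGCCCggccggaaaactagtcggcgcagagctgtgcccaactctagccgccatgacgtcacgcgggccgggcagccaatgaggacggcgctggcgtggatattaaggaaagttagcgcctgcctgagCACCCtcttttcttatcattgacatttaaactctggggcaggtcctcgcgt

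The first PRDM1 window held 0 CACC boxes and 0 GC boxes, and the second held 3 CACC boxes and 1 GC box, with no base in both. The ELF3 window held 1 CACC box and 0 GC boxes, and the PAX6 window 2 CACC boxes and 1 GC box. Among all 35116 promoter windows of the same length, 59.9% held at least 1 CACC box and 45% at least 1 GC box. The ETS core GGAAG (or CTTCC) occurred 3 times in the first PRDM1 window and 0 times in the second and in the ELF3 window, and 71.9% of all windows held it. It occurred 1 time in the PAX6 window. The grainyhead site AACCGGTT occurred in 0 of the 17 member windows and in 0.134% of all windows. A match describes these letters only. Other spellings of such sites were not searched, so a count of 0 does not mean that a window lacks a site for a Kruppel-like factor.

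Relatives and other transcription factors of the epithelium were read from lists. Of 30 measured relatives of the members (PAX, FOX, p53, grainyhead, ovo, ETS and PRDM families), 0 rose and 0 fell with 3 arrays, and the median was -0.08. The nearest relatives had small differences from replicate 2. GRHL2, the third grainyhead-like factor, stood at 0.10 (SE 0.15), OVOL2 at -0.28 (SE 0.16) and ELF5, an ETS factor, at 0.05 (SE 0.16), and these 3 were chosen as the closest paralogues of measured members. By the naming rule, the smallest p belonged to SPDEF at -0.37, FOXD1 at -0.31, PRDM16 at -0.30 and PAX1 at -0.30. Scramble control replicate 1 was at least 2-fold below replicate 2 for 3 of the 30 (PAX9, FOXQ1 and ELF5), against 2.95% of all genes.

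The 39 other epithelial transcription factors had a median of -0.09 with 3 arrays. Both siKLF7 arrays lay below replicate 2 for 23 of them, against 44.6% of all genes. They lay above it for 7, against 29.7% of all genes. MEIS1, a homeobox factor, measured 1012 and 845 in the siKLF7 arrays, against 328 and 632 in the controls, at 0.54 with 3 arrays (SE 0.15, adjusted p = 0.052). SMAD3, ETS2 and HEY1 stood at -0.45, -0.33 and -0.43 without passing. The 15 mesenchymal transcription factors, some of which oppose grainyhead and ovo factors in epithelial plasticity, had a median of -0.13 with 3 arrays. SNAI2 stood at 0.16, ZEB1 at -0.32, TCF4 at 0.47 and FOXD3 at -0.36. With 4 arrays 0 members of these 3 lists passed, and the medians were -0.08, 0.07 and -0.13.

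**Figure D4:**
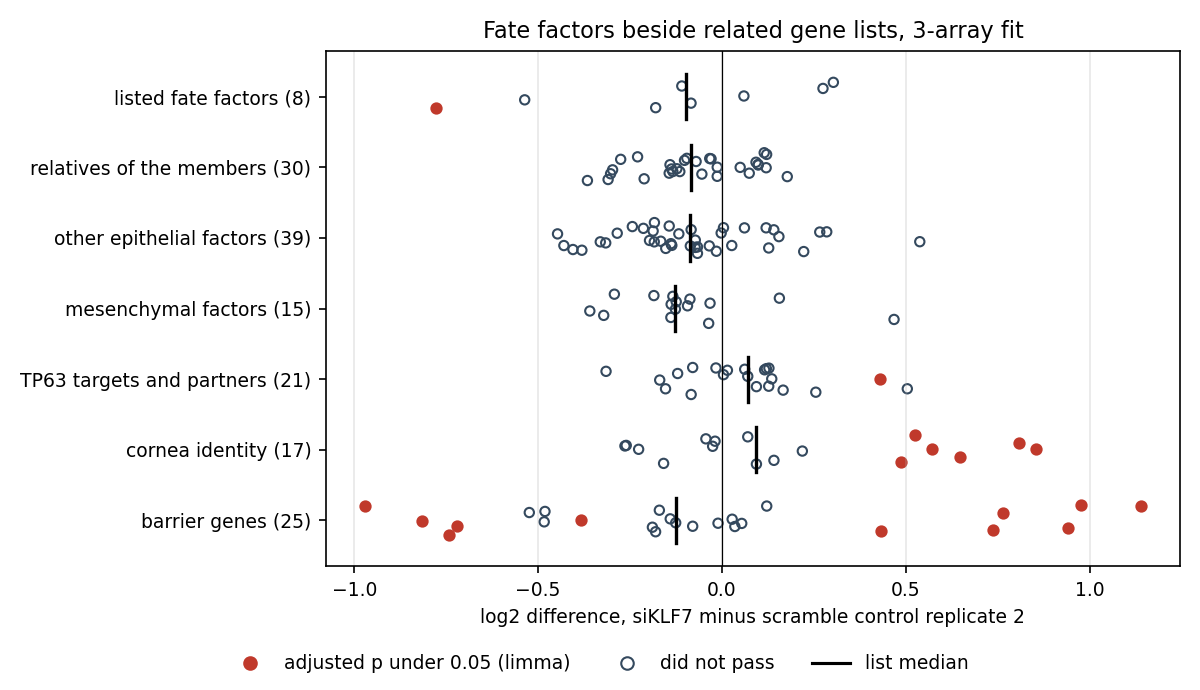
Log2 difference of siKLF7 arrays from scramble control replicate 2 for the 8 factors and the genes of 6 related lists (number measured in brackets), with filled points past an adjusted p of 0.05 in limma's 3-array fit and bars at list medians. Calls fall among the identity and barrier genes and at PRDM1, ITGA6 is the single call among TP63 targets, and the lists of relatives, other epithelial factors and mesenchymal factors hold 0.

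Among genes that these factors are known to control, some rose and others fell. Of 25 barrier genes attached to the grainyhead, ZNF750 and PRDM1 programmes, 6 rose and 5 fell with 3 arrays, and the median was -0.13. KRT10, a suprabasal keratin, rose by 0.94 (SE 0.09, adjusted p = 7.3e-13), DSC1, a desmosomal cadherin, by 1.14 and CASP14, a protease of the cornified layer, by 0.98. CNFN, a cornified envelope protein, fell by 0.82 (SE 0.09, adjusted p = 4.8e-11). The other calls were DSG1, KRT1 and FLG, which rose by 0.43, 0.74 and 0.76, and TGM1, TGM3, CLDN7 and ALOX12B, which fell by 0.38, 0.97, 0.74 and 0.72 (log2). TGM1 and TGM3 are transglutaminases that cross-link the cornified envelope. Of the 5 that fell, 4 had the opposite sign with 4 arrays, CNFN at 1.98, TGM1 at 1.31, TGM3 at 0.98 and ALOX12B at 0.93, so their falls rest on scramble control replicate 2. CLDN7, a tight junction claudin, kept its sign at -0.62. With 4 arrays 0 of the 25 passed and the median was 1.24. In replicate 1, 20 of the 25 were at least 2-fold lower than in replicate 2, against 2.95% of all genes.

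Of 17 identity genes, 6 rose and 0 fell with 3 arrays (median 0.09, and 0.65 with 4 arrays, where 0 passed). KRT12 rose by 0.81 (SE 0.12), KRT15, a basal keratin, by 0.85 (SE 0.13), AQP3, a water channel, by 0.49 (SE 0.09) and KRT3 by 0.57 (SE 0.13). ALDH3A1, a corneal crystallin enzyme, and CLU, a secreted chaperone, rose by 0.65 and 0.53. For these 6 genes both siKLF7 arrays lay above both controls, as for PAX6, GRHL1, OVOL1 and 16.3% of all genes. They were picked by their rise against replicate 2, and each had a lower signal still in replicate 1. Their place above both controls therefore follows from that choice and from the low signal of replicate 1. Of 21 targets and partners of TP63, 1 rose and 0 fell (median 0.07, and 0.13 with 4 arrays, where 0 passed). The integrin gene ITGA6 rose by 0.43 (SE 0.09, adjusted p = 0.0027) against replicate 2 and stood at -0.06 with 4 arrays, while FGFR2, LAMB3 and DSG3 stood at 0.50, -0.32 and -0.17. KRT14, the partner keratin of KRT5, stood at 0.09 (SE 0.06).

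Of the 8 factors, 5 spanned at least 1 log2 unit over the 4 arrays, and for these the genes with the most similar profile were sought. Likeness was the root mean square difference of log2 levels minus each gene's own mean over the 4 arrays, among genes with a mean log2 level of at least 7. Nearest to GRHL1 were NEBL (0.028), SPRR1A (0.055) and SPRR1B (0.061). SPRR1A measured 10721 and 11056 in the siKLF7 arrays, against 1000.1 and 11316 in scramble control replicates 1 and 2. Nearest to GRHL3 were MARCHF3 (0.018), S100A9 (0.027) and ABLIM1 (0.030), and nearest to ZNF750 were DEFB1 (0.043), SLPI (0.051) and MUC16 (0.057). MUC16, a membrane mucin of the ocular surface, measured 670.2 and 602 in the siKLF7 arrays, against 24.5 and 655 in the controls. Nearest to ELF3 were A2ML1 (0.057), RHCG (0.10) and CALML5 (0.11), and A2ML1 measured 749 and 679 in siKLF7 arrays, against 112 and 1140.5 in control arrays. Nearest to OVOL1 were S100A4 (0.076), TMPRSS13 (0.11) and IL36RN (0.11). Each of these 15 genes had its lowest signal in replicate 1, as the 5 factors had, which follows from choosing them by likeness of profile.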

How the data were processed

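The values used are the linear-scale array intensity per feature that the authors deposited. The submitters' processing notes name Affymetrix Expression Console 1.1.1 and PLIER 2.0. How arrays were normalized to each other is not stated in these sources, and the median signal ran from 184.9 to 194 over the arrays. Of 33297 features, 19460 had 1 listed symbol, 1754 had several and 12083 were unlisted, and the feature with the highest mean log2 level stood for each of 18417 genes. Log2(signal + 16) was fitted with limma 3.58.1 in R 4.3.3 (lmFit, eBayes with trend), and p-values were adjusted by Benjamini-Hochberg across every gene, with 0.05 as threshold. The 4-array fit had 2 residual degrees of freedom. The 3-array fit had 1, so its spread came from the siKLF7 pair and 74.2 prior degrees of freedom. The fit was tested on simulated data in which every array was given a spread taken from the siKLF7 pair. That test therefore did not cover an array that stands apart, as scramble control replicate 1 does. Nor did it cover a lone control that varies differently from the siKLF7 pair.

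The members and the 11 gene lists were chosen with earlier results of these data known. Of 211 distinct list genes, 193 were measured. The naming rule took all members, KLF7, up to 4 genes per list by smallest p with 3 arrays, and the 3 genes most like each member that spanned at least 1 log2 unit. The other genes named were chosen after their values were seen. Deviations of same-numbered arrays from their group means correlated at r = -0.041 over genes. The control deviation holds replicate 1, which stood apart, so this value cannot show whether the numbers pair the arrays. The number of arrays limits the precision. Figures were drawn with matplotlib 3.10.9.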

Additional observations from a re-analysis of the deposited data

How the results depend on the processing

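With 4 arrays 0 genes passed, 1069 at an unadjusted p under 0.05, and 0 genes and 0 of the 8 factors passed under quantile normalization, median centring, pseudocounts of 1 and 32, filters on dim genes, the other priors and the mean of a gene's features. Leaving out 1 array at a time gave 0 to 4935 genes and 0 to 7 factors. The 7, all but PRDM1, passed without scramble control replicate 2, where replicate 1 was the lone control. The same omissions moved GRHL3 from -0.18 to 1.52, ELF3 from -0.54 to 2.56, ZNF750 from -0.11 to 3.91 and PRDM1 from -0.78 to 0.20, so the sign of these 4 depended on which control was kept. With the replicate number as a block 0 genes and 0 factors passed (680 genes at an unadjusted p under 0.05), and the labels do not say that the numbers pair the arrays.

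With 3 arrays 290 genes and 1 factor passed. Quantile normalization gave 484 genes and 2 factors, the second being ELF3 (-0.52, adjusted p = 0.040), and a prior with no trend gave 172 genes, and the cause was not tested. Without the dimmest 50% of genes 0 factors passed, because PRDM1 and ELF3 were among the genes left out. The adjusted p of PRDM1 ranged from 0.00029 to 0.0065 over the other alternatives. All 8 factors kept their sign under the 3-array alternatives in which they were tested. The gap between the controls for ELF3 was -3.57 with a pseudocount of 1 and -2.74 with 32. Dim signals near the pseudocount limit the size of such gaps.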

Other observations

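Of the 39 other epithelial transcription factors, 7 were at least 2-fold lower in scramble control replicate 1 than in replicate 2. Over all genes this share was 2.95%. In this list 0 were at least 2-fold higher, against 2.34% of all genes, and the rest lay within 2-fold. HOPX, a homeodomain-only protein of differentiating epithelia, measured 362 and 413 in the siKLF7 arrays, against 22.7 and 427 in scramble control replicates 1 and 2. KLF4, a Kruppel-like factor of epithelial differentiation, measured 973 and 1059 in siKLF7 arrays, against 154 and 933 in control arrays. ETS1, an ETS factor outside the epithelium-specific group, had a smaller gap in the other direction, at 381 and 361 in the siKLF7 arrays, against 969 and 496 in the controls. These genes were chosen after their values were seen.

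Markers of other cells were also read with 3 arrays. Of 11 conjunctival and goblet markers, 2 rose (KRT13 by 0.40, KRT19 by 0.54) and 1 fell (MUC1, by 0.82). With 4 arrays KRT13 stood at 3.06, KRT19 at 0.18 and MUC1 at -0.0054. MUC1 measured 294 and 273 in the siKLF7 arrays, against 155 and 511 in scramble control replicates 1 and 2, so its fall rests on replicate 2. Of 8 melanocyte markers 1 rose, KIT by 1.77, while TYR and MITF stood at -0.21 and -0.17. Of the 16 stromal markers, LUM and POSTN rose by 0.64 and 0.86, at signals near the pseudocount. POSTN measured 77.4 and 44.1 in the siKLF7 arrays, against 678 and 25.4 in the controls, and stood at -1.18 with 4 arrays, so its rise rests on replicate 2. Of 9 leukocyte and 10 vascular endothelial markers 0 rose and 0 fell, with medians of -0.07 and -0.17. PTPRC, the pan-leukocyte phosphatase, stayed between 25.5 and 31.8 on all arrays, but not every leukocyte marker was this dim. CD68 measured 990 and 986 in the siKLF7 arrays, against 1419 and 1130 in scramble control replicates 1 and 2.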
